A study of Mus musculus with 9 samples.

Results

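The interferon response genes described here are 39 mouse genes that interferons are known to induce, chosen by name and grouped by role. Of these, 37 had a probe set naming a single gene on the array, out of 18193 such genes in all, and 33 reached the level needed for testing, out of 10329 genes tested. They were measured in germinal centre (GC) B cells, the dividing B cells in which antibody genes are mutated and selected, on 9 Affymetrix mouse expression arrays. Mice aged 10 weeks were injected with sheep red blood cells on days 0 and 5, and GC B cells were sorted from the spleen on day 12 as B220 high, PNA high and CD95 high cells. All mice carried Cg1-Cre, a recombinase expressed from the immunoglobulin gamma 1 locus in GC B cells, also those with intact Foxo1. The genotypes were FOXO1f/f (KO, 2 floxed alleles), FOXO1f/+ (HET, 1 floxed allele) and FOXO1+/+ (WT), with 3 arrays each. The sample labels give 1 animal per array, while the series design mentions cell pools, so the spread between arrays may be that between animals or pools.

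FOXO1, a transcription factor of the forkhead family, is kept out of the nucleus by PI3K signalling and is known in the GC as a factor of the dark zone. Type I interferons bind the receptor IFNAR1 and IFNAR2, whose kinases JAK1 and TYK2 activate a complex containing STAT2 and IRF9 that binds the interferon-stimulated response element (ISRE) of its target genes. Interferon gamma signals through another receptor to promoter elements called GAS, and its targets include guanylate-binding proteins, immunity-related GTPases and the immunoproteasome.

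Promoter windows were searched for the letters that these factors read. RefSeq (GRCm38.p6) windows of 300 bases, from 250 bases before to 50 after each gene's start, were at hand for 30 of the 39 genes, and 5 of these had more than 1 window. The ISRE core was searched as GAAA, NN and GAAA in a row on both strands, GAS as TTCNNNGAA and the forkhead motif as GTAAACA on both strands, and each pattern was counted on its own, overlaps included. The ISRE core lay in the window of 14 of the 30 interferon response genes (46.7%), against 1079 of 27025 genes with a window (3.99%) and 3.44% of all 32851 windows. GAS matches were found in 9 of the 30 (30.0%), against 9.55% of all genes and 8.30% of windows. The forkhead motif was present in 2 of the 30 (6.67%), Gbp3 and Rsad2, against 4.05% of all genes and 3.65% of windows. A match describes letters and is not evidence of binding. Windows are printed for the 4 genes with the smallest p in KO against WT among those with a window, Gbp3, Stat2, Psmb8 and Ifit2, and for Ifit3, chosen after its values were seen because 1 array stood far above the others. Capitals mark the ISRE core, here on the strand opposite to the search letters, and the Psmb8 and Ifit2 windows held 0 such matches and 1 GAS match each, left in lower case.
Gbp3, chr3:142559794-142560093, plus strand, 1 of its 2 windows, with 2 overlapping matches starting 45 and 39 bases before the start: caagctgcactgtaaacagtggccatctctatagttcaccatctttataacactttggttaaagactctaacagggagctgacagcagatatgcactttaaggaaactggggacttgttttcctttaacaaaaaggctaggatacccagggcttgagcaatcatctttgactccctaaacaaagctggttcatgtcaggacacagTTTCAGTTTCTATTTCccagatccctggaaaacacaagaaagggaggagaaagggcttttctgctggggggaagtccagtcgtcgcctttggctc
Stat2, chr10:128270248-128270547, plus strand, with 1 match starting 222 bases before the start: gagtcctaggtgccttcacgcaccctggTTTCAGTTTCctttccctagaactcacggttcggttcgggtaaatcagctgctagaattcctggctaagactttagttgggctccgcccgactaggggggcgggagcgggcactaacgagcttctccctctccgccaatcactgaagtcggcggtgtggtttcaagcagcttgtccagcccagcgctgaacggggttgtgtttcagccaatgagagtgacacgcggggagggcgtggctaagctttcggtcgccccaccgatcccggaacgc
Psmb8, chr17:34197945-34198244, plus strand: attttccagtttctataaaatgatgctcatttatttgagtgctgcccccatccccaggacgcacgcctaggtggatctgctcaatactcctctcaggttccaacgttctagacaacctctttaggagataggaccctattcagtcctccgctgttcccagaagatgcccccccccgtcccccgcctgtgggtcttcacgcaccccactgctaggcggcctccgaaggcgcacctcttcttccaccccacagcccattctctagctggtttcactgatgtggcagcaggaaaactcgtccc
Ifit2, chr19:34550444-34550743, plus strand, 1 of its 2 windows: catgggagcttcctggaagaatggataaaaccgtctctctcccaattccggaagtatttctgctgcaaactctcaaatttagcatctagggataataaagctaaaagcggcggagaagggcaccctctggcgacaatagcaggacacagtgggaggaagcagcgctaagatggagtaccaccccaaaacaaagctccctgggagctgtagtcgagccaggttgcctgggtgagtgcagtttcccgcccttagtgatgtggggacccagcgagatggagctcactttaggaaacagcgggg
Ifit3, chr19:34583279-34583578, plus strand, with 2 matches starting 156 and 122 bases before the start: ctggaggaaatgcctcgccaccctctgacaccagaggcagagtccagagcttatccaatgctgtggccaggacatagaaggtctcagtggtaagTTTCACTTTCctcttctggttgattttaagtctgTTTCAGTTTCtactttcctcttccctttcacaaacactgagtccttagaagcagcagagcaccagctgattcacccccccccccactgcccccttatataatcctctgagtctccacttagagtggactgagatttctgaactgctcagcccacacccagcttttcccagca

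Foxo1 itself, on its brightest probe set, had a MAS5 signal of 1034 ± 335 in KO, 3564 ± 77.9 in HET and 5449 ± 159 in WT (SD, n = 3 each), a log2 change of -2.45 in KO against WT (SE 0.16, adjusted p = 2.30e-06, limma). HET differed from WT by -0.61, with an adjusted p of 0.918. Signals of all arrays correlated at r between 0.974 and 0.990. The median signal was 47.4 to 48.0 on the KO arrays and 42.9 to 45.0 on the HET and WT arrays. Of 12 listed GC markers 10 were tested, among them Bcl6, the master repressor of the GC programme, with signals of 8121 to 10699 over the 9 arrays. Of the 10, 1 was higher and 2 lower in KO than in WT (30% called, against 11.9% of all genes). Fas rose by 0.30 on the log2 scale (limma, adjusted p = 0.0131). Gcsam fell by 1.36 (adjusted p = 1.46e-05) and Rgs13 by 0.25 (adjusted p = 0.0143).

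No interferon response gene passed an adjusted p of 0.05 between KO and WT (limma, two-sided, adjusted over all 10329 genes). Across all tested genes 6.11% were higher and 5.83% lower in KO at that threshold, 11.9% in either direction. At an unadjusted p under 0.05, there were 7 of the 33 (21.2%), against 25.7% of all genes, and in all 7 the KO mean was lower: Parp14, Gbp3, Stat2, Psmb8, Ifit2, Gbp2 and Dtx3l. By direction, 11.9% of all genes were lower and 13.8% higher in KO at that unadjusted p. In 5 genes, Stat2, Parp9, Parp14, Oas3 and Gbp3, every KO array lay below every WT array (13.5% of all genes did so), and in 0 did every KO array lie above every WT array (16.2% of all genes). The KO mean was below the WT mean in 25 of the 33, against 47.7% of all genes, and the median log2 change was -0.16, against 0.01 over all genes. Leaving out the array WT 2, which was the highest WT array for most of these genes, brought the median to -0.06 and the count to 18 of 33. That step by itself lowers the WT mean of each gene for which WT 2 was highest. Without WT 1 the median was -0.21 and the count 25, and without WT 3 they were -0.20 and 28. Scaling mattered too: with each array centred on its median, 8 of the 33 were called lower in KO, while the median change of all genes moved to -0.11 and the calls over all genes to 399 higher and 1683 lower (20.2%), against 631 and 602 without centring. In a bulk sample, fewer cells of a type and less RNA per cell cannot be told apart.

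**Figure D1:**
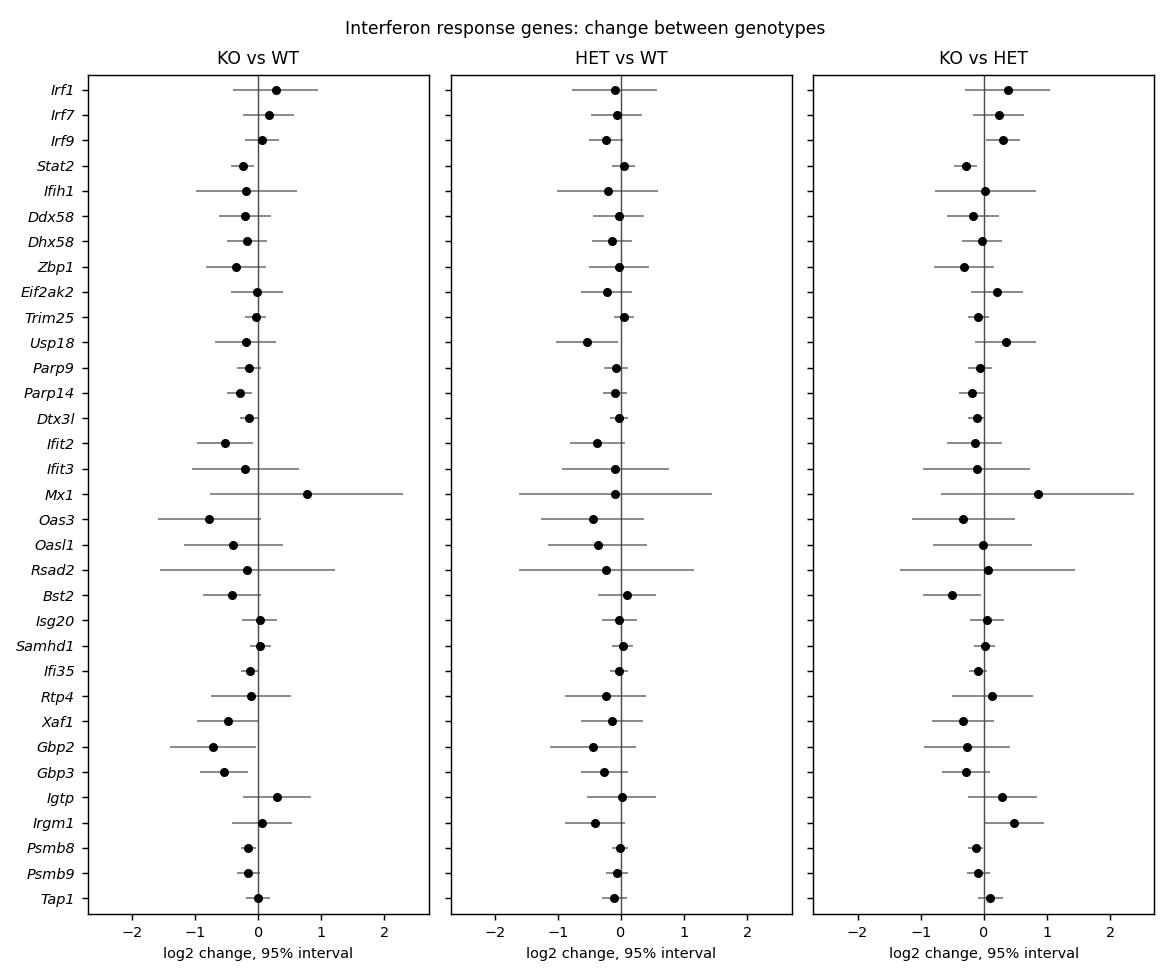
Each point is the log2 change of 1 of the 33 tested interferon response genes (KO against WT, HET against WT, KO against HET), with its 95% interval from limma. In KO against WT the changes run between -0.77 (Oas3) and 0.77 (Mx1), and no gene passed an adjusted p of 0.05 in any of the 3 comparisons.

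Among the transducers of the interferon signal, Stat2 had the smallest spread between arrays. Stat2, the STAT that carries the type I interferon signal, had signals of 495, 503 and 490.2 on the KO arrays, 596, 598 and 621 on the HET arrays and 582, 580.2 and 601 on the WT arrays. All 3 KO values lay below all 6 others, which held for 1 of the 33 interferon response genes and for 890 of all 10329 genes (8.62%). The log2 change was -0.24 in KO against WT (SE 0.08, 95% interval -0.43 to -0.06, adjusted p = 0.0810) and -0.29 in KO against HET (adjusted p = 0.0534). The residual SD of Stat2 was 0.027 on the log2 scale, below that of all but 0.0299% of genes with a mean signal between 200 and 1000, and limma raises so small a spread towards that of other genes: without the trend in this step, the adjusted p was 0.0255. A second Stat2 probe set gave -0.22 (adjusted p = 0.543, in a limma fit over 19479 probe sets, where the brightest had 0.108).

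Irf9, the DNA-binding partner of STAT2, showed no such separation. Its signals were 929.7, 1257 and 986 on the KO arrays, 848, 782 and 930.4 on the HET arrays and 1019, 1137 and 889 on the WT arrays. The groups overlapped, and the KO mean was 0.05 above WT (SE 0.12, adjusted p = 0.838) and 0.30 above HET (adjusted p = 0.165). Irf7, which amplifies type I interferon production, and Irf1, which drives many interferon gamma targets, differed by 0.17 and 0.28 in KO against WT with adjusted p of 0.630 and 0.638. Irf1 had a residual SD of 0.54, above 99.8% of genes with a mean signal of 1000 and over, and its 9 signals ran between 627 (WT 3) and 1870.4 (KO 2).

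Among the sensors of viral nucleic acid all 6 KO means were below WT, with log2 changes between -0.35 and -0.02, and the smallest adjusted p was 0.356. Zbp1, a sensor of Z-form nucleic acid, had the change of -0.35. The RNA helicases Ifih1 (-0.19), Ddx58 (-0.21) and Dhx58 (-0.18), the kinase Eif2ak2 (-0.02) and the ubiquitin ligase Trim25 (-0.04) were the others. KO 3 was the lowest of the KO arrays for all 6 sensors, and WT 2 the highest of the WT arrays for 5. Without WT 2 the KO mean was above WT for 2 of the 6, Ifih1 (0.15) and Eif2ak2 (0.15), and Zbp1 differed by -0.10. Leaving out WT 2 by itself lowers the WT mean of each gene for which it was the highest WT array.

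The ADP-ribosylation and ISG15 group held the smallest p in KO against WT. Parp14, a mono-ADP-ribosyltransferase, had signals of 1754, 2192 and 1909 on the KO arrays, 2244, 2058 and 2393 on the HET arrays and 2396, 2550.2 and 2209 on the WT arrays. All KO values lay below all WT values, while KO 2 reached into the HET range, and the log2 change was -0.29 in KO against WT (SE 0.09, 95% interval -0.49 to -0.10, adjusted p = 0.0541). The second Parp14 probe set, with a mean signal of 185 over the arrays, ran the other way at 0.30. In the limma fit over all probe sets its adjusted p was 0.428, and that of the brightest 0.0709.

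Parp9 and Dtx3l, an inactive ADP-ribosyltransferase and the ubiquitin ligase it pairs with, are neighbours on chromosome 16, and Parp14 lies close by. Dtx3l had signals of 4297, 4461 and 3904 on the KO arrays, 4538, 4372 and 4783 on the HET arrays and 4409, 4818 and 4760.3 on the WT arrays. KO 2 lay above the lowest WT array, and the log2 change was -0.14 (SE 0.06, adjusted p = 0.171). A second Dtx3l probe set, with a mean signal of 1340, gave -0.06 (SE 0.09). Parp9 differed by -0.15 (adjusted p = 0.324), with KO signals of 934, 961 and 961, against 968, 1175 and 1028 in WT. Isg15 itself, the ubiquitin-like protein, was not analysed here.

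Usp18, the protease that removes ISG15 and restrains the type I receptor, was the interferon response gene with the smallest p in HET against WT. Its signals were 163, 244 and 219 on the KO arrays, 186, 129 and 176 on the HET arrays and 189.8, 326 and 214 on the WT arrays. All HET values lay below all WT values, and the KO values overlapped both. The log2 change was -0.54 in HET against WT (adjusted p = 0.998) and -0.20 in KO against WT (SE 0.22, adjusted p = 0.640).

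The antiviral effectors covered the widest range of changes. Ifit2, which binds foreign RNA, had signals of 178, 114 and 109 on the KO arrays, 139.6, 146 and 148 on the HET arrays and 165, 229 and 177 on the WT arrays. The array KO 1 reached the WT range and the other KO arrays lay below every HET and WT array. The log2 change was -0.52 in KO against WT (SE 0.20, adjusted p = 0.122) and -0.38 in HET against WT, where the arrays did not overlap (adjusted p = 0.998).

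Oas3, an oligoadenylate synthetase that activates RNase L on double-stranded RNA, had signals of 95.7, 72.7 and 79.4 on the KO arrays, 138, 49.7 and 159 on the HET arrays and 118, 214 and 112 on the WT arrays. All KO values were below all WT values, and the HET values spread from below the KO arrays into the WT range. The log2 change of -0.77 had a 95% interval of -1.59 to 0.05 (adjusted p = 0.222).

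Bst2, which tethers budding virions to the cell surface, had signals of 126, 171 and 108 on the KO arrays, 192, 152 and 236 on the HET arrays and 167, 159.6 and 209 on the WT arrays. KO 2 overlapped the WT and HET arrays, and the change was -0.41 against WT (adjusted p = 0.244) and -0.51 against HET (adjusted p = 0.164).

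Mx1, Rsad2 and Ifit3 were too variable for a genotype difference to be bounded closely. Mx1, a dynamin-like GTPase that blocks influenza virus, had signals of 96.0, 43.5 and 72.2 on the KO arrays, 66.7, 10.0 and 65.5 on the HET arrays and 13.0, 90.1 and 46.5 on the WT arrays. Each genotype had 1 array below that array's median signal. Its KO to WT ratio was 1.70 with a 95% interval of 0.589 to 4.91 (log2 0.77, SE 0.71, adjusted p = 0.548).

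Rsad2, the radical-SAM enzyme viperin, had signals of 53.1, 31.8 and 85.6 on the KO arrays, 75.1, 12.7 and 125 on the HET arrays and 56.3, 88.4 and 42.4 on the WT arrays. Each genotype again had 1 array below its array's median, and the interval of the KO to WT ratio of 0.887 was 0.339 to 2.32 (adjusted p = 0.903). Ifit3, which supports the Ifit complex, had signals of 64.9, 65.4 and 107 on the KO arrays, 93.6, 87.9 and 70.1 on the HET arrays and 55.3, 194 and 64.7 on the WT arrays. Only WT 2 stood apart, 3.50-fold above WT 1, and the KO to WT log2 change was -0.20 (SE 0.39, adjusted p = 0.802).

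The dNTP hydrolase Samhd1 (0.04) and the exonuclease Isg20 (0.02) had KO to WT changes near 0, with 95% intervals of -0.13 to 0.20 and -0.25 to 0.30. Oasl1, which represses Irf7 translation, differed by -0.39 (SE 0.36, adjusted p = 0.550). Ifit1, Mx2, Oas2 and Oasl2 reached the array median on 2, 0, 0 and 1 of the 9 arrays and were not tested: their signals ran between 0.622 and 60.5.

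**Figure D2:**
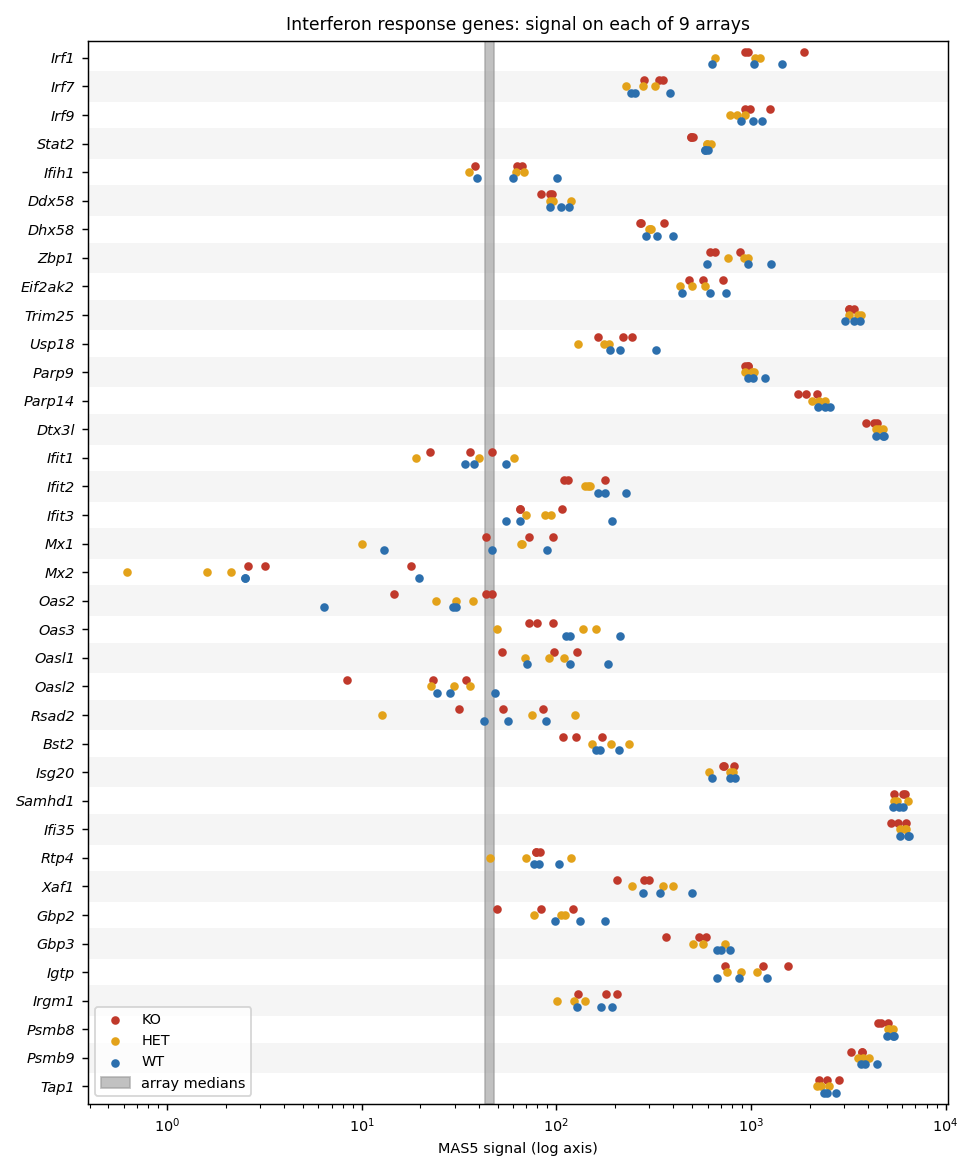
Signal of each of the 37 interferon response genes on each of the 9 arrays, on a log axis, with KO, HET and WT arrays drawn above one another and the grey band marking the array medians (42.9 to 48.0). The 3 KO points of Stat2 lie apart from the other 6, while Mx1, Rsad2 and the 4 genes below the filter scatter across or below the band.

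The guanylate-binding proteins and the immunity-related GTPases, both interferon gamma targets that act on vacuoles holding pathogens, had KO means on both sides of WT: lower for Gbp2 and Gbp3, higher for Igtp and Irgm1, with 0 of 4 called. Gbp3 had signals of 543, 588 and 364 on the KO arrays, 569, 734 and 504 on the HET arrays and 700.0, 776 and 670.3 on the WT arrays. All KO values lay below all WT values, and the HET values overlapped both. The log2 change was -0.55 in KO against WT (SE 0.17, 95% interval -0.93 to -0.17, adjusted p = 0.0621).

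Gbp2, its neighbour on chromosome 3, had signals of 83.1, 122 and 49.4 on the KO arrays, 106, 111 and 76.8 on the HET arrays and 133, 177 and 98.1 on the WT arrays. KO 2 overlapped the WT arrays, and the change was -0.72 (SE 0.31, adjusted p = 0.168), with -0.83 on a second probe set. In the limma fit over all probe sets the adjusted p of the second was 0.154, and that of the brightest 0.187. Guanylate-binding proteins are near-identical in parts, and the brightest Gbp2 probe set is of a type that can bind related transcripts, so its signal may hold that of relatives.

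Irgm1, a regulator of the immunity-related GTPases, had signals of 206, 179.8 and 129 on the KO arrays, 141, 123 and 101 on the HET arrays and 170.3, 194 and 128 on the WT arrays. The KO mean was 0.06 above WT (SE 0.22, adjusted p = 0.907) and 0.47 above HET (adjusted p = 0.217), and the HET arrays overlapped both other genotypes. Igtp was 0.30 higher in the KO mean (SE 0.25, adjusted p = 0.499). The 4 GTPase genes shared the lowest array of each genotype, KO 3, HET 3 and WT 3 in 4 of 4, and WT 2 was the highest WT array in 4 of 4. KO 2 was the highest KO array in 3 of 4, and the highest HET array was HET 1 in 2 and HET 2 in 2.

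In antigen processing, Psmb8 and Psmb9 encode catalytic subunits of the immunoproteasome and Tap1 a subunit of the peptide transporter, and the 3 genes lie next to each other on chromosome 17. Psmb8 had signals of 4675, 4501 and 5043 on the KO arrays, 5364, 5152 and 5052 on the HET arrays and 5009, 5354 and 5450.3 on the WT arrays. KO 3 lay just above the lowest WT array, and all KO values lay below all HET values. The change was -0.15 in KO against WT (SE 0.06, 95% interval -0.28 to -0.03, adjusted p = 0.106) and -0.13 in KO against HET (adjusted p = 0.187). A second Psmb8 probe set, with a mean signal of only 55.2, gave -0.48 in KO against WT (SE 0.48).

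Psmb9 had signals of 3253, 3707 and 3739.6 on the KO arrays, 3761, 4048 and 3561 on the HET arrays and 3657, 4443 and 3845 on the WT arrays. WT 2 stood above the rest and the groups overlapped (log2 change -0.16, SE 0.08, adjusted p = 0.254). Tap1 differed by 0.00, with a 95% interval of -0.20 to 0.19.

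Of the remaining induced genes, Xaf1, a partner of the apoptosis inhibitor XIAP, had signals of 300.3, 283 and 205 on the KO arrays, 355, 246 and 397 on the HET arrays and 279, 495 and 342 on the WT arrays. KO 1 and KO 2 lay just above the lowest WT array, and the change was -0.48 (SE 0.23, adjusted p = 0.213). Ifi35 had signals of 5253, 6230.2 and 5672 on the KO arrays, 6256, 5823 and 6154 on the HET arrays and 5805, 6408 and 6503 on the WT arrays. KO 2 overlapped the WT arrays, with a change of -0.13 (SE 0.07, adjusted p = 0.261). Other Ifi35 probe sets were dimmer, with mean signals of 838 and 342 against 6012 on the brightest, and gave 0.03 and -0.09. Rtp4, a chaperone of receptors, differed by -0.11 (SE 0.29), and Ifi44 was not analysed here.

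Between HET and WT, no interferon response gene passed (limma), against 1 of all 10329 genes (0.00968%). At an unadjusted p under 0.05, 1 of the 33 did, Usp18, against 4.18% of all genes. The HET mean was below WT in 28 of 33, against 49.2% of all genes, with a median of -0.10. This comparison shares its WT arrays with that of KO against WT. Without WT 2 the count was 18 and the median -0.01. Without WT 1 they were 29 and -0.16, and without WT 3 they were 27 and -0.19. Between KO and HET, which shares no WT array, again 0 of 33 passed (limma), against 8.99% of all genes. An unadjusted p under 0.05 was reached by 5, Irf9 with a higher KO mean and Stat2, Parp14, Bst2 and Psmb8 with a lower one, against 23.2% of all genes. By direction, 12.4% of all genes were higher and 10.8% lower in KO. Here 19 of the 33 KO means were lower (57.6%), against 47.8% of all genes, with a median of -0.06.

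A missed threshold does not show that the genotypes are alike, and the intervals say what size remains possible. For KO against WT the 95% interval lay within 0.5 either side of 0 on the log2 scale for 14 of 33 interferon response genes (42.4%). It lay within 1 for 27 (81.8%). Of all tested genes, 64.1% lay within 0.5 and 89.9% within 1. The median half-width of the interval was 0.41 for these genes and 0.23 for all tested genes.

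The spread between single arrays of a genotype was larger in interferon response genes than in most other genes. Their median residual SD was 0.27 on the log2 scale, against 0.13 over all genes, and 24 of 33 lay above the median of all genes. Spread falls with signal, so it was also read within classes of mean signal. Below 200 the median was 0.50 for 12 interferon response genes, against 0.29 for all genes in the class. Between 200 and 1000 it was 0.27 for 11, against 0.15, and from 1000 upwards 0.11 for 10, against 0.087. Above the median of their own class were 9 of 12, 10 of 11 and 8 of 10. The range of the 3 genotype means was under 2 residual SDs in 29 of 33 (87.9%), against 69.8% of all genes.

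**Figure D3:**
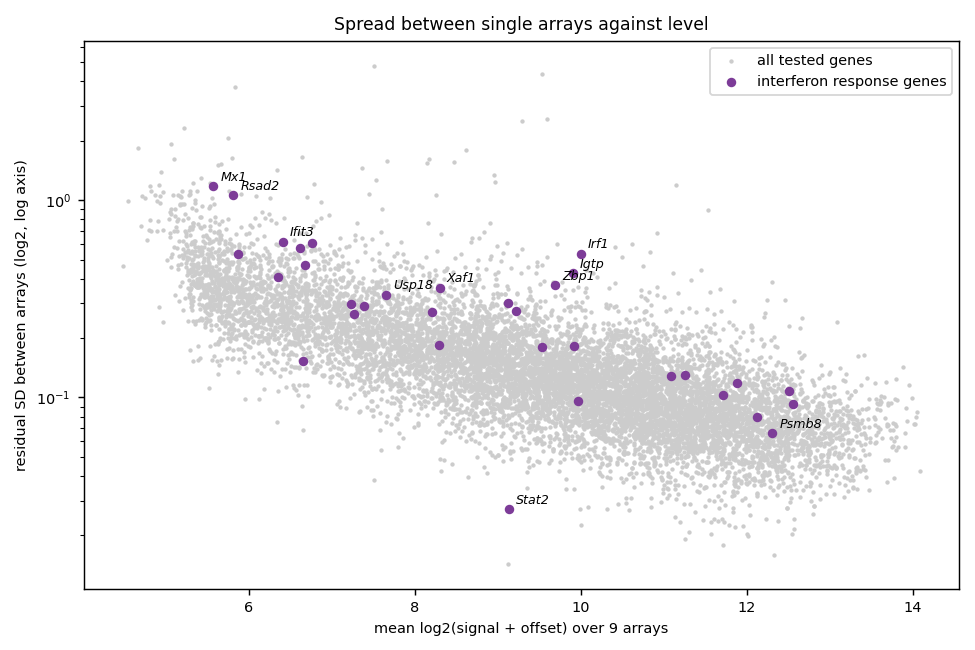
Residual SD between arrays of a genotype (log axis) against mean log2 signal for the 10329 tested genes (grey) and the 33 interferon response genes (purple). Irf1, Igtp, Zbp1 and Xaf1 lie high for their signal, and Stat2 (0.027) lies at the lower edge.

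WT 2 was the highest WT array for most genes of every role, while the order of the KO and HET arrays differed between roles. WT 2 was the highest WT array for 27 of 33 interferon response genes (81.8%), against 37.8% of all genes, and the highest of all 9 arrays for 18, against 10.6% of all genes. Its median deviation from the WT mean was 0.26 on the log2 scale, against 0.01 over all genes. WT 1 was the highest WT array for 0 of 33, against 28.2% of all genes. Among the KO arrays, KO 2 was the highest for 17 (30.3% of all genes) and KO 3 the lowest for 18 (36.9% of all genes). Among the HET arrays, HET 2 was the lowest for 17 (29.1% of all genes), and HET 3 was the highest for 14 and the lowest for 13. HET 2 was the lowest for 4 of 4 ADP-ribosylation and ISG15 genes. HET 3 was the lowest for 4 of 4 GTPases and 3 of 3 antigen-processing genes. KO 3 was the lowest KO array for 6 of 6 sensors, but KO 1 was for 3 of 4 transducers. WT 2 led in all 4 genes of the ADP-ribosylation and ISG15 group, in 7 of 9 antiviral effectors, in 5 of 6 sensors, in 3 of 4 transducers and in 2 of 3 antigen-processing genes. Genes are not independent replicates, so these counts describe the arrays and carry no test.

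**Figure D4:**
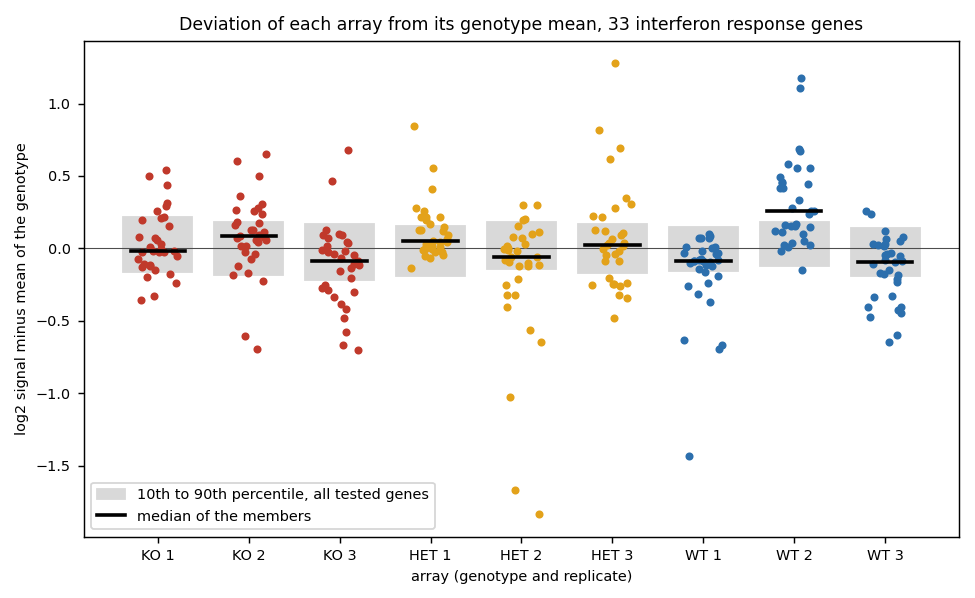
Deviation of each of the 33 tested interferon response genes from its genotype mean (log2) on each array, with the median as a bar and the 10th to 90th percentile of all tested genes in grey. The bar of WT 2 stands at 0.26, and those of the other 8 arrays lie between -0.09 and 0.08.

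A separate list of 63 further interferon-induced genes, of which 44 were tested, was also read by array. WT 2 was the highest WT array for 29 of the 44 and the highest of all 9 arrays for 15, KO 2 the highest KO array for 24 and KO 3 the lowest for 26. Between KO and WT, 2 of the 44 rose and 6 fell (18.2% called, against 11.9% of all genes), and 36 did not pass. Plscr1, a phospholipid scramblase, fell by 1.01 on the log2 scale (adjusted p = 0.00376) and Slfn2, a regulator of lymphocyte quiescence, by 0.63 (adjusted p = 0.0275). Pml, the organiser of PML nuclear bodies, rose by 0.77 (adjusted p = 0.0104) and Tdrd7, a tudor-domain protein, by 0.96 (adjusted p = 0.0233). The list was drawn up with earlier results of these data known, and the median change over it was 0.00.

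Upstream of the interferon response genes, 0 of 16 tested genes for receptors, JAK kinases, other factors and inhibitors passed in any comparison (limma), and their median KO to WT change was -0.01. Ifngr1, a chain of the interferon gamma receptor, had the smallest p at 0.48 (SE 0.17, adjusted p = 0.0828), followed by the kinase Jak1 at -0.23 (adjusted p = 0.130). Of 10 interferon genes with a probe set, 9 never reached the median of any array, and Ifna1, the one tested, differed by 0.48 (adjusted p = 0.333). In the pathway that induces interferon, 2 of 12 tested genes rose in KO against WT (16.7% called, against 11.9% of all genes in either direction and 6.11% higher). Ticam1, the adaptor of TLR3, rose by 0.92 (SE 0.25, adjusted p = 0.0328), with signals of 354, 325 and 388 on the KO arrays, 237, 220.0 and 137 on the HET arrays and 225, 236 and 122 on the WT arrays. No KO array overlapped a HET or WT array. The kinase Ikbke rose by 0.67 (SE 0.19, adjusted p = 0.0369), and Tlr3 itself, a receptor for double-stranded RNA, was 0.86 higher in KO than in WT (adjusted p = 0.0527) and 1.00 higher than in HET (adjusted p = 0.0326).

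Markers of some other cells moved with genotype too. For the counts below, 6.11% of all tested genes were called higher and 5.83% lower in KO than in WT. Of 8 tested myeloid markers 4 rose in KO against WT (Lyz2, Lyz1, Csf1r and Cd68), and 1 of the 8 in KO against HET. The summed signal of the 17 with a probe set was 2326 to 3047 on KO, 958 to 2431 on HET and 675 to 1691 on WT arrays. Another 9 of the 17, among them C1qa, Itgam and Mpo, were below the array median on all 9 arrays. On WT 1, WT 2 and WT 3 the myeloid sums were 1691, 870.2 and 675. Their relation to the interferon response gene values was not tested. Dendritic cell markers summed to 1770 to 2134 on KO, 1725 to 1823 on HET and 1442 to 1618 on WT arrays, with 1 of 5 tested higher in KO than in WT and Siglech below the array median on all 9 arrays. T cell markers summed to 194 to 309, 252 to 426 and 284 to 331 on KO, HET and WT arrays, with 0 of 3 called (limma). NK cell markers summed to 356 to 533 on KO, 413 to 432 on HET and 280 to 402 on WT arrays, with 0 of 1 called (limma). Erythroid and platelet markers summed to 139 to 229, 253 to 346 and 260.1 to 298. There the 1 gene tested, Car2, was lower in KO than in WT by 0.77 (limma, adjusted p = 0.0316). The single genes Prf1 and Car2 made up most of the NK sum and of the erythroid and platelet sum. Their other markers with a probe set were below the array median on most arrays and were not tested. Of 10 marginal zone B cell markers 9 rose in KO against WT, with sums of 22827 to 24830 on KO, 16765 to 18069 on HET and 17025 to 17523 on WT arrays. Of 5 plasma cell markers 4 rose, with sums of 15356 to 17180 on KO, 10507 to 11422 on HET and 9696 to 10409 on WT arrays. Of 6 naive and follicular markers 4 fell, with sums of 5806 to 6484 on KO, 9344 to 9553 on HET and 8389 to 9236 on WT arrays. The part of these cells in the interferon response gene values was not tested.

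The arrays also differed in Xist, the transcript of the inactive X chromosome, whose signal was 6828 to 8322 on KO 1, KO 2, HET 3, WT 2 and WT 3 and 23.2 to 66.1 on KO 3, HET 1, HET 2 and WT 1. WT 2 and WT 3, both high in Xist, were the highest WT array for 27 and 6 of the 33 interferon response genes. WT 1, low in Xist, was the highest for 0. Whether this order goes with Xist was not tested. With Xist at or above the array median as a covariate, as planned, 1 of the 33 passed between KO and WT, Gbp3 (limma, adjusted p = 0.0411). In that fit 12.7% of all genes were called, and 8 of the 33 had an unadjusted p under 0.05 (limma). Without the covariate, 7 of the 33 and 25.7% of all genes had such a p. That share of all genes is not given for the fits with Xist. With Xist above 1000 as a covariate, a split added after seeing the data, 0 of the 33 passed (limma). There 12.1% of all genes were called, the smallest adjusted p of the 33 was 0.0561, and 9 had an unadjusted p under 0.05 (limma).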

How the data were processed

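Transcripts of sorted splenic GC B cells were measured on 9 single-colour arrays. The deposited table gives linear signal intensities, 1 for each array and probe set, made by the authors with MAS5 per the submitters' processing notes; its version is not given in the sources used here. All arrays had a mean of 500 once the top and bottom 2% of signals were removed, and the sources name no genome build. Of 45101 probe sets, 34945 carried 1 gene symbol, 932 several and 9160 none, besides 64 controls; 34741 were matched to RefSeq genes (GRCm38.p6) by Entrez identifier.

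Signals were analysed as log2(signal + 2.09), the offset being the 10th percentile of all signals, which understates the changes of dim genes. The arrays were not rescaled. Each gene was read from its single-symbol probe set with the highest mean, and kept if it reached the array's median on at least 3 of the 9 arrays. All arrays entered 1 linear model in limma 3.58.1 (lmFit, eBayes with trend; R 4.3.3). Calls were made at a two-sided Benjamini-Hochberg adjusted p under 0.05 over all 10329 genes. Second probe sets were read from a separate limma fit, adjusted over 19479 probe sets. Every p in the text comes from limma and measures only the spread between these arrays, whose number limits the precision. An exact permutation test of 3 against 3 arrays cannot give a p below 0.10. Arrays of a genotype are numbered in order of deposition, and sex, litter and batch were not given. The model was tested on simulated data.

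Values on every array are given for the interferon response genes with the 12 smallest unadjusted p in KO against WT, the 4 smallest in each other comparison and the 4 largest residual SDs; other genes named singly were chosen after their values were seen. From each pathway list up to 4 genes with the smallest p are named. Promoters are those of the 4 genes with the smallest p that had a window, and of Ifit3, added after its values were seen. The members and lists were chosen with earlier results of these data known. Alternatives changed the offset, scaling, filter, probe set choice, model and arrays used, with Xist as a covariate.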

Additional observations from a re-analysis of the deposited data

How the results depend on the processing

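The count of interferon response genes called in KO against WT, 0 of 33, was 2 after quantile normalization (Gbp3 and Stat2; 11.7% of all genes were called) and 8 after centring each array on its median (Ifi35, Psmb8, Dtx3l, Psmb9, Parp14, Gbp3, Stat2 and Ifit2; 20.2% of all genes), all lower in KO. Median centring moved the median change of all genes to -0.11, since KO arrays had the higher medians, and the split of all calls to 399 higher and 1683 lower, against 631 and 602; the median of the interferon response genes was then -0.28. The count was 1 without the trend in eBayes (Stat2; 9.19% of all genes), 1 with robust eBayes (Parp14; 12.0%), 1 with array weights (Parp14; 11.6%) and 1 with Xist at or above the array median as a covariate (Gbp3; 12.7%). HET 2 fell on the high side of that split with an Xist signal of 66.1, so a split at 1000 was added after seeing the data and gave 0. Leaving out 1 array gave 0 to 2. Called were Zbp1 without WT 3 (7.48% of all genes) and Ifit2 without KO 1 (8.45%). Parp14 and Gbp3 were called without KO 2 (9.25%), and Gbp3 without HET 2 (11.1%). In KO against HET the count of 0 was 1 after quantile normalization (Stat2; 8.77% of all genes), 3 after median centring (Psmb8, Parp14 and Stat2; 13.3%) and 1 without the trend (Stat2; 6.13%), and stayed 0 when any 1 array was left out. In HET against WT it was 0 under all 23 alternatives. Of 750 values of single genes in KO against WT, 36 in 15 genes changed sign, all without a call. Before any alternative, the largest change among these 15 was that of Parp14 (-0.29). Tested one by one, 0 of 50 probe sets of these genes were called (limma; added after seeing the data), against 8.19% of all 19479. Calls over all genes numbered 1233, and 770 and 768 without WT 2 and WT 3. No paired analysis was possible because the genotypes share no replicate numbers in the labels. The 4 genes near or below the array median were limited by signal.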

Other observations

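The ISRE core also marked 301 tested genes that are not on the list. Between KO and WT, 18 of them rose and 23 fell (13.6%), against 11.7% of 8124 tested genes with a window and no match. WT 2 was the highest WT array for 41.5% of the 301 and for 38.0% of the 8124. Among the interferon response genes themselves, WT 2 was the highest WT array for 10 of 12 with a match in the window and for 10 of 14 without one. Genes are not independent replicates, and these shares carry no test.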
